A study of Mus musculus with 6 samples.

Results

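This account concerns 41 genes of the small ribosomal subunit processome and of late 40S maturation, chosen by symbol from the 55418 gene symbols of the count table. All 41 were present, passed the filter on low counts and are described. RNA was sequenced from MOC2, a mouse head and neck squamous carcinoma line negative for papillomavirus. Of the 6 libraries of polyadenylated RNA, 3 are labelled EphA4 knockout, from a single edited clone named H3, and 3 are labelled control CRISPR. Both groups were untreated, carry the same batch label, were passaged 2 times after thawing and grew in medium with serum, EGF, hydrocortisone and insulin. The sources used here give neither the guide sequences nor whether the control cells were a clone or a pool. Because the edited cells are 1 clone, an effect of the edit and a property of that clone cannot be told apart.

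The small subunit of the ribosome is built in the nucleolus around the nascent ribosomal RNA precursor. The processome is the large early particle in which the U3 small nucleolar RNA and several protein modules fold the precursor and position it for cleavage. Late factors then accompany the particle to the cytoplasm, where the last cut yields the mature small-subunit RNA. Demand for these factors is high in growing cells, and many of their genes are known targets of the MYC transcription factor. The modules named below were largely defined in yeast, and the roles given are background.

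Library totals ran from 35115926 to 41775031 counts. Epha4, the targeted receptor gene, had 3483, 3815 and 3606 counts in the EphA4 knockout-labelled libraries and 1907, 2110 and 2250 counts in the control libraries, a difference that edgeR's quasi-likelihood test called higher (log2 fold change 0.86 with an SE of 0.06, adjusted p = 2.1e-06). The transcript was thus higher where the label says knockout. Whether labels were exchanged between the groups was not tested, and an exchange would turn round every direction given here. Directions below follow the labels, with the EphA4 knockout-labelled libraries set against the control libraries. Counts per gene carry no information on the edit itself or on the protein. The third EphA4 knockout-labelled library held 1.66% of its counts in pseudogenes, against 0.332% to 0.403% in the other 5. Of 8 epithelial markers, Krt8, Krt18, Krt19, Epcam and Cdh1 were abundant, whereas the basal squamous markers Krt5 and Trp63 were at or near 0 in all 6 libraries. Summed levels of those 8 were 4630 to 4730 CPM (counts scaled to a common library size, here by library totals) in EphA4 knockout-labelled libraries and 5510 to 5650 CPM in control libraries. Its members went both ways: of the 6 that passed the filter, Krt8, Krt18 and Cdh1 were called higher and Krt19, Epcam and Krt14 lower. Of 8 fibroblast markers 5 passed the filter, all called lower. The 8 summed to 1.91 to 2.03 CPM in EphA4 knockout-labelled libraries and 48.2 to 51.7 CPM in control libraries. Lum was at 0 in all and Dcn and Thy1 at 0 in the EphA4 knockout-labelled ones. Col1a2, which did not pass the filter, went the other way, with 8, 11 and 10 counts in EphA4 knockout-labelled and 4, 0 and 1 in control libraries. Of 7 leukocyte markers, with Cd3e, Itgam and Adgre1 at 0 in all libraries, the sums were 4.30 to 4.81 CPM in EphA4 knockout-labelled and 17.5 to 19.9 CPM in control libraries, nearly all from Cd68. The 4 endothelial markers summed to 0.586 to 1.05 CPM in EphA4 knockout-labelled libraries and 1.11 to 1.46 CPM in control libraries. Only Cdh5 of these passed the filter, and it was not called. It had 14, 34 and 18 counts in EphA4 knockout-labelled and 48, 26 and 43 in control libraries. The part of these marker differences in the results below was not tested, and in bulk RNA fewer cells of a type and less RNA per cell cannot be told apart.

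Most of the 41 genes had more transcript in the EphA4 knockout-labelled libraries. Summed over the 41, the level was 5808, 5745 and 5923 CPM there (scaled with TMM factors, as are all CPM values from here on) and 2893, 2981 and 2999 CPM in control libraries. The sums did not overlap, and averaged 5825 ± 90.2 CPM in EphA4 knockout-labelled and 2958 ± 56.8 CPM in control libraries (SD, n = 3 each), a ratio of 1.97. In raw counts the genes made up 0.580% ± 0.00606 of EphA4 knockout-labelled and 0.297% ± 0.00511 of control libraries (SD, n = 3 each).

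By edgeR's quasi-likelihood test with Benjamini-Hochberg adjustment at 0.05, 37 of the 41 genes were called higher, beside 32.7% of all 15199 genes tested, 3 were called lower, beside 38.8%, and 1 was not called; in either direction 71.5% of all genes tested were called. The genes were proposed with this contrast in view, so these counts describe them and are no test of the group, and no p-values are given for single genes among them. The ranges of the 2 groups lay apart upward for 37 of the 41, beside 34.6% of all genes tested (76.1% in either direction). The median log2 fold change was 0.99, against -0.04 over all genes tested, and 19 of the 41 lay above 1, beside 13.2% of all genes. At least 3-fold higher were 7 genes, Rrp12, Pwp2, Utp20, Tsr1, Pdcd11, Heatr1 and Rcl1. The share of all genes tested at that limit was not computed, so this count is only a list of names. Nothing in the labels ties the replicates to separate cultures, so the p-values behind these calls reflect the variation among the libraries, possibly technical, and no more.

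**Figure D1:**
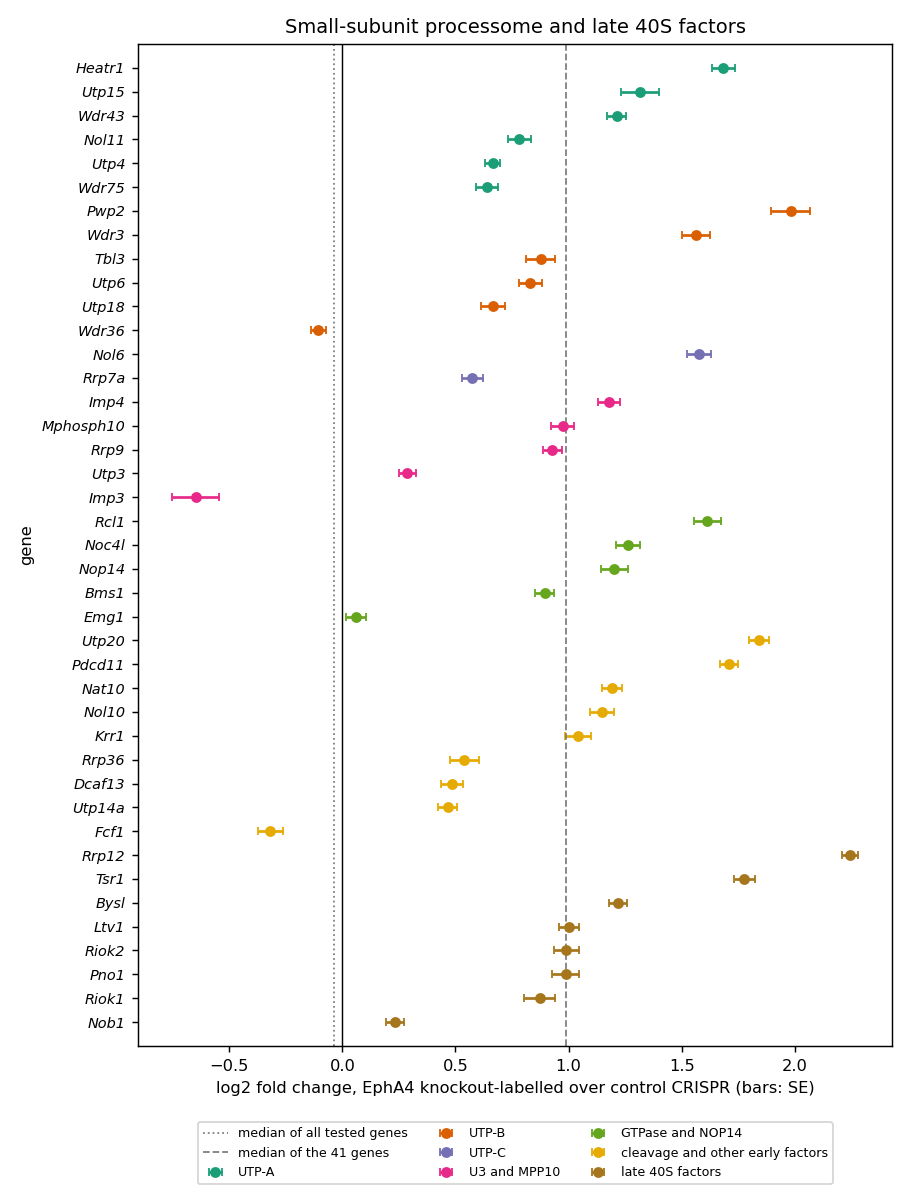
Log2 fold change (horizontal axis) of each of the 41 genes, EphA4 knockout-labelled over control CRISPR libraries, n = 3 each, with bars for the SE and colours for the modules. Nearly all points lie right of 0, around the dashed median of 0.99, with Imp3, Fcf1 and Wdr36 left of it; the dotted line is the median of all tested genes at -0.04.

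Replicates of these genes were close. Across the 41 the coefficient of variation was 0.53% (Utp20) to 14.4% (Imp3), with a median of 3.55%, in EphA4 knockout-labelled libraries, and 1.35% (Wdr43) to 10.5% (Utp15), with a median of 4.15%, in control libraries. Without the library richest in pseudogenes the median log2 fold change of the 41 genes was 1.04.

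Upstream sequences of the genes were examined for the E-box CACGTG, the motif bound by MYC with its partner MAX, because many genes of ribosome production carry it. The RefSeq promoter table (build GRCm38.p6, 250 bases before to 50 bases after the start) held 34 of the 41 genes. The motif, which reads the same on both strands, stood in 10 of the 34 promoters, or 29.4%, beside 11.5% of the promoters of 10401 tested genes and 8.09% of 27025 in the whole table. Over only the 100 bases before the start the shares were 5.88% of the 34 promoters and 5.48% of those of tested genes. The first share is only 2 promoters, too few to call the shares alike or different. In 6 of the 10 it lay after the start. The 10 genes with the motif had a median log2 fold change of 0.99 and the other 24 a median of 1.02, so its presence in this window did not go with a larger difference. A match is only a run of letters and says nothing about binding. Shown are the 5 promoters with the whole motif (in capitals) between the 100th base before the start and the 30th base from it, with 2 promoters that lack it there, those of Pwp2, the largest fold change among the 34, and Imp3, the lowest. The strand is that of the gene.
Tsr1 (chr11:74897980-74898109, +): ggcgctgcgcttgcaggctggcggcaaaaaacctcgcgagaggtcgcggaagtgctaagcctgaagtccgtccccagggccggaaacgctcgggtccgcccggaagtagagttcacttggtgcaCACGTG
Wdr43 (chr17:71616115-71616244, +): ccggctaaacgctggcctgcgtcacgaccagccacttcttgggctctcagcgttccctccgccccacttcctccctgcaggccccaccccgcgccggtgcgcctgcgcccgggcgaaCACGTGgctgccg
Utp4 (chr8:106893540-106893669, +): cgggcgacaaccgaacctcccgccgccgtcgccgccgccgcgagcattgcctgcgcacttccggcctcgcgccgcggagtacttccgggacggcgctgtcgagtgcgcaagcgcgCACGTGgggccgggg
Nol11 (chr11:107189352-107189481, -): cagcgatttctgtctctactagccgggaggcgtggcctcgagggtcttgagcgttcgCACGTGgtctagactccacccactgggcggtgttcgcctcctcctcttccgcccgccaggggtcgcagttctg
Utp18 (chr11:93885737-93885866, -): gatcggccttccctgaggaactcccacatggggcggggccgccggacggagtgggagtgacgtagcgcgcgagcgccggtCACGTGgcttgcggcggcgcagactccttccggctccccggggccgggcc
Pwp2 (chr10:78185120-78185249, -): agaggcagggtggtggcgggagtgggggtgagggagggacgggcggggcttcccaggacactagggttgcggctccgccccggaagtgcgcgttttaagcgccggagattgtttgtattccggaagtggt
Imp3 (chr9:56937400-56937529, +): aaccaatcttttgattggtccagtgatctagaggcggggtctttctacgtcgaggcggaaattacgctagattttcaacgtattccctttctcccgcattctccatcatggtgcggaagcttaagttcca
The first base of the motif is at position 25 from the start in Tsr1, 18 in Wdr43 and 16 in Utp4, and 43 and 20 bases before it in Nol11 and Utp18. Of the 7 windows the one of Imp3 had the lowest share of G and C, 46.9%, against 64.6% to 76.9% in the other 6.

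The UTP-A module binds the nascent precursor first, and all 6 of its genes were higher, with a median log2 fold change of 1.00. Heatr1, its largest scaffold protein, had 169, 165 and 174 CPM in EphA4 knockout-labelled libraries and 49.3, 55.9 and 53.2 CPM in control libraries, a log2 fold change of 1.68 (SE 0.05). Wdr75, a WD-repeat subunit, had 104, 102 and 107 CPM in EphA4 knockout-labelled libraries and 62.9, 69.9 and 68.3 CPM in control libraries, a log2 fold change of 0.64 (SE 0.05). These are the ends of the module, and in both genes the groups lay clearly apart. Utp4, the gene whose human counterpart is mutated in a childhood liver cirrhosis, had 244, 233 and 243 CPM in EphA4 knockout-labelled libraries and 148, 152 and 153 CPM in control libraries, a log2 fold change of 0.66 (SE 0.03). Between them lay the subunit genes Nol11 (0.78), Wdr43 (1.21) and Utp15 (1.31), given as log2 fold changes. Nol11, Wdr43 and Utp4 are 3 of the genes shown above with the E-box, and Heatr1 and Wdr75 had no CACGTG in their promoter windows.

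In UTP-B, which joins the precursor with the U3 particle, 5 of 6 genes were higher and 1 was slightly lower, with a median log2 fold change of 0.85. Pwp2, a WD-repeat core subunit, had 98.5, 84.3 and 82.4 CPM in EphA4 knockout-labelled libraries and 24.4, 21.4 and 21.3 CPM in control libraries, a 3.95-fold difference (log2 fold change 1.98, SE 0.09). Wdr36, another WD-repeat subunit, had 179, 172 and 174 CPM in EphA4 knockout-labelled libraries and 184, 191 and 191 CPM in control libraries. The 2 ranges of Wdr36 stand next to each other, at a log2 fold change of -0.11 (SE 0.03), and 10 of 16 other settings did not call it. Wdr3, Tbl3, Utp6 and Utp18, which encode the remaining subunits, had log2 fold changes of 1.56, 0.88, 0.83 and 0.67. Of the exon bases of Tbl3, 37.3% also belong to Noxo1 on the opposite strand, so its reads cannot be assigned with certainty without a stated strand setting.

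Nol6 and Rrp7a are partners in UTP-C. Nol6 had 151, 135 and 141 CPM in EphA4 knockout-labelled libraries and 46.4, 48.6 and 48.3 CPM in control libraries, a log2 fold change of 1.58 (SE 0.05). Rrp7a had 119, 112 and 112 CPM in EphA4 knockout-labelled libraries and 75.1, 74.5 and 80.4 CPM in control libraries, a log2 fold change of 0.57 (SE 0.05). Both were higher in every EphA4 knockout-labelled library, by unequal amounts.

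The genes of the U3 particle and of the MPP10 complex, which ties U3 to the precursor, included 4 that were higher and 1 that was lower. Imp4, a component of that complex, had 91.9, 97.0 and 99.5 CPM in EphA4 knockout-labelled libraries and 41.4, 42.1 and 43.9 CPM in control libraries, a log2 fold change of 1.18 (SE 0.05). Imp3, its partner in the same complex, had 51.5, 45.3 and 38.5 CPM in EphA4 knockout-labelled libraries and 75.2, 64.5 and 72.4 CPM in control libraries, a log2 fold change of -0.65 (SE 0.10). The 2 partners thus differed in opposite directions, without overlap of the groups in either. Mphosph10, the third protein of the complex, and Rrp9, a protein specific to the U3 particle, had log2 fold changes of 0.97 and 0.93. Utp3, known in yeast as Sas10, had 188, 189 and 183 CPM in EphA4 knockout-labelled libraries and 155, 146 and 157 CPM in control libraries, a log2 fold change of 0.29 (SE 0.04).

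Bms1, a GTPase of the processome, and its partner Rcl1 had log2 fold changes of 0.90 and 1.61. Rcl1 had 93.5, 90.7 and 90.4 CPM in EphA4 knockout-labelled libraries and 28.1, 32.5 and 29.2 CPM in control libraries. Nop14 and Noc4l, which bind each other in the particle, were higher by similar amounts (log2 fold changes 1.20 and 1.26). Emg1, a methyltransferase of the small-subunit RNA that associates with Nop14, had 110, 107 and 99.99 CPM in EphA4 knockout-labelled libraries and 98.3, 102 and 103 CPM in control libraries. Its ranges overlapped, at a log2 fold change of 0.06 (SE 0.05). It alone of the 41 was not called, although it was called higher without the third EphA4 knockout-labelled library (log2 fold change 0.16) and with pseudogenes left out (0.11).

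Among cleavage and other early factors, 8 of 9 genes were higher and the nuclease gene was lower. Utp20, a very large scaffold protein, had 211, 212 and 213 CPM in EphA4 knockout-labelled libraries and 58.9, 62.2 and 56.3 CPM in control libraries, a log2 fold change of 1.84 (SE 0.04). Fcf1, the PIN-domain nuclease known as Utp24 in yeast, had 47.6, 43.3 and 46.7 CPM in EphA4 knockout-labelled libraries and 56.4, 55.4 and 59.8 CPM in control libraries, a log2 fold change of -0.32 (SE 0.06). For both genes the groups did not overlap. Pdcd11, the counterpart of yeast Rrp5 that acts in both subunits, had a log2 fold change of 1.71. Nat10, the acetyltransferase of the small-subunit RNA, had 1.19, Nol10 1.15 and the RNA-binding factor gene Krr1 1.04. Rrp36, Dcaf13 and Utp14a, the last of these the partner of the helicase Dhx37, had smaller values of 0.54, 0.49 and 0.47.

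All 8 late factors were higher, with a median log2 fold change of 1.00, against 0.93 for the 33 processome genes. Rrp12, a HEAT-repeat factor of subunit export, had the largest difference of the 41 genes, with 239, 236 and 247 CPM in EphA4 knockout-labelled libraries and 50.2, 52.1 and 50.1 CPM in control libraries (log2 fold change 2.24, SE 0.04). Nob1, the nuclease that makes the last cut of the small-subunit RNA, had the smallest of the late group, with 99.4, 95.6 and 98.4 CPM in EphA4 knockout-labelled libraries and 81.8, 81.7 and 85.8 CPM in control libraries (log2 fold change 0.23, SE 0.04). Neither gene showed overlap of the groups. Pno1, the RNA-binding partner of Nob1, had a log2 fold change of 0.99. The GTPase-like factor Tsr1 had 1.78, the export and joining factors Bysl and Ltv1 had 1.22 and 1.00, and the kinases Riok2 and Riok1 had 0.99 and 0.87. The exons of Tsr1 share 32.3% of their bases with Srr on the opposite strand. In all, 20 of the 41 genes share exon bases with another model, all on the opposite strand, and 6 of them share over 10% (Tbl3, Tsr1, Wdr3, Rrp7a, Utp14a and Riok2).

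**Figure D2:**
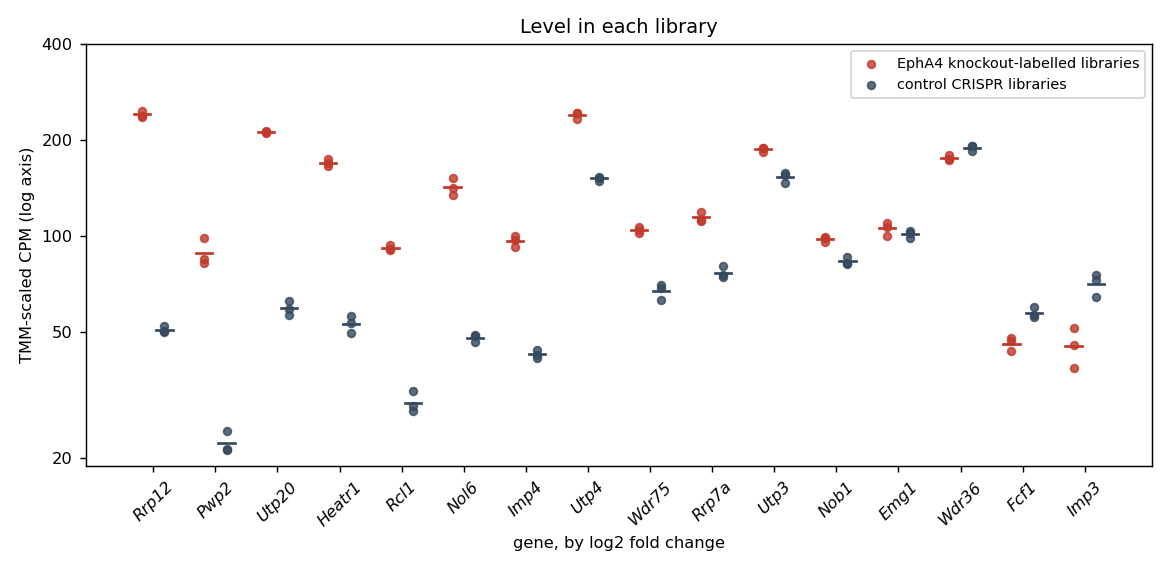
TMM-scaled CPM on a log axis in each of the 6 libraries for 16 of the genes, ordered by log2 fold change; red points are EphA4 knockout-labelled libraries, dark points control libraries, and short lines group means (n = 3 each). The gap between groups narrows from Rrp12 (239, 236 and 247 against 50.2, 52.1 and 50.1 CPM) to Emg1, whose points overlap, and turns round for Wdr36, Fcf1 and Imp3.

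Levels of different genes were compared per kilobase of the principal transcript. In EphA4 knockout-labelled libraries they ran from 13.9 CPM per kb (Riok1) to 115 CPM per kb (Utp3), with a median of 43.7. In control libraries they ran from 5.78 CPM per kb (Pwp2) to 97.9 CPM per kb (Emg1), with a median of 21.5. Pwp2 had 22.8 CPM per kb in EphA4 knockout-labelled and 5.78 in control libraries, while Emg1 had 102 in EphA4 knockout-labelled and 97.9 in control libraries. These levels depend on the length used: per union of exons Pwp2 had the same levels, Emg1 had 22.8 in EphA4 knockout-labelled and 21.9 in control libraries, and the ends of the control range were Riok1 (2.20) and Utp3 (93.9). Within UTP-B the level of the highest subunit was 2.79 times that of the lowest in EphA4 knockout-labelled libraries and 7.33 times in control libraries. Within UTP-A this ratio was 6.85 in EphA4 knockout-labelled and 10.2 in control libraries. With the union of all exons as the length the ratio in UTP-B was 2.21 in EphA4 knockout-labelled and 4.59 in control libraries, and in UTP-A 7.03 in EphA4 knockout-labelled and 9.33 in control libraries. Among Bms1, Rcl1, Nop14, Noc4l and Emg1, and among the late factors, the direction depended on the length used. In the first of these groups the ratio was 2.49 in EphA4 knockout-labelled and 5.90 in control libraries per principal transcript, but 4.73 in EphA4 knockout-labelled and 3.22 in control libraries per union of exons. Among the late factors it was 6.42 in EphA4 knockout-labelled and 6.61 in control libraries per principal transcript, but 19.9 in EphA4 knockout-labelled and 18.4 in control libraries per union of exons.

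**Figure D3:**
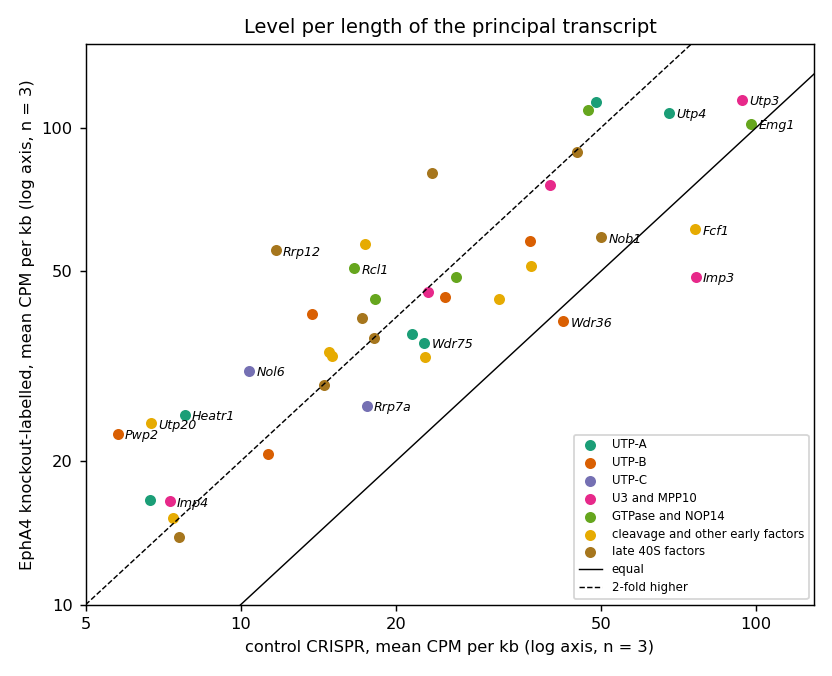
Mean level per kilobase of the principal transcript in EphA4 knockout-labelled libraries (vertical, log axis) and control libraries (horizontal, log axis), n = 3 each, coloured by module. Points crowd around the dashed line of a 2-fold difference, those above it include Rrp12, Pwp2 and Utp20, and Imp3, Fcf1 and Wdr36 lie under the solid line of equality.

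The genes that differed most encode long proteins and those that differed least or the other way encode mostly short ones. Across the 41 genes Spearman's rho between coding length and log2 fold change was 0.53, given as a description, since all points come from the same 6 libraries. Across 12552 tested protein-coding genes, in the same libraries, it was 0.106. The 7 members with coding parts under 1000 bases, among them Imp3 (552 bases), Fcf1 (594) and Emg1 (732), had a median log2 fold change of 0.54, and all 3988 tested genes of that length a median of -0.22. From 1000 to 2000 bases the 14 members had a median of 0.96 and all tested genes -0.16. From 2000 to 3000 bases the 13 members had a median of 0.97 and all tested genes -0.02. The 7 members of 3000 bases or more, among them Utp20 (8367 bases), Heatr1 (6429) and Rrp12 (3885), had a median of 1.68 and all tested genes of that length 0.17. Wdr36 goes against the trend, with 2697 coding bases and a log2 fold change of -0.11, as does Rcl1, with 1119 bases and 1.61. In each of the 4 length classes the members' median was above that of all genes of that length. The members were chosen with this contrast in view, so these medians only describe them. The part of length in their difference was not tested.

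**Figure D4:**
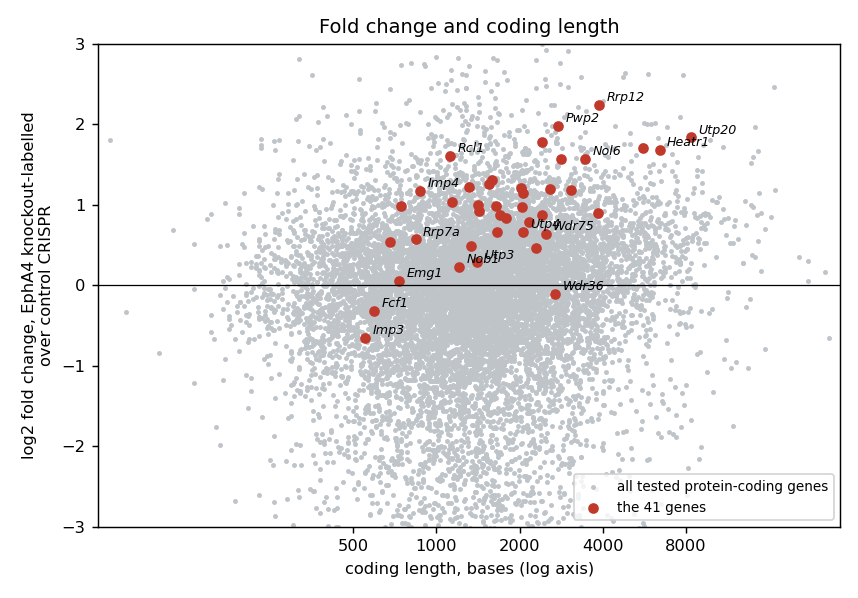
Log2 fold change, EphA4 knockout-labelled over control CRISPR libraries, against coding length in bases (log axis) for the 41 genes (red) and all tested protein-coding genes (grey, of which 1159 lie beyond the vertical limits of 3). The red points climb from Imp3 at 552 bases to Rrp12 and Utp20 at 3885 and 8367 bases, with Wdr36 below the others of its length.

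Neighbouring parts of ribosome production were read from the same test. The lists were chosen by function with earlier results of these data known, so their counts only describe them. Beside the counts below, 32.7% of all genes tested were called higher and 38.8% lower. Of 32 other small-subunit factors, 27 were called higher, 2 lower and 3 neither, with a median log2 fold change of 0.50. Nop58, a core protein of the U3 and other box C/D particles, and Dhx37, the helicase that releases U3, led with log2 fold changes of 1.70 and 1.63. Riok3, a kinase of late particles, and Ngdn, the counterpart of yeast Lcp5, were lower (-0.29 and -0.23). Of 52 large-subunit assembly factors, 48 were called higher and 2 lower, with a median of 0.75, led by Mdn1 (2.46) and the helicase gene Ddx51 (1.77). RNA polymerase I, with its initiation and termination factors, makes the precursor. Of 15 genes of this group, 10 were called higher and 2 lower, with a median of 0.86. Cd3eap and Polr1b, subunits of the polymerase, led with 2.83 and 1.71, and Taf1b and Polr1c were lower (-0.51 and -0.28). Whether the medians of these lists differ from that of the 41 genes was not tested.

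Transcripts of small-subunit ribosomal proteins, which are assembled in the processome and after it, were mostly lower. Of 33 small-subunit ribosomal protein genes, 30 were called lower, beside 38.8% of all genes tested, and 1 higher, beside 32.7%. Their median log2 fold change was -0.44, and -0.30 without the third EphA4 knockout-labelled library. Rps14 and Rps24 were furthest down, at -1.14 and -1.02. The exception, Rps10, had only 441, 410 and 391 counts in EphA4 knockout-labelled libraries and 211, 219 and 190 counts in control libraries. These counts were far under those of the other genes of the list. Ribosomal protein genes have many near-identical copies among which reads can be split. This holds for the whole list, and its part in the values of Rps10 or of the other genes was not tested. Set against the summed level of these 33 transcripts, the 41 assembly genes came to 26.2% ± 1.37 in EphA4 knockout-labelled and 9.60% ± 0.375 in control libraries (SD, n = 3 each), a ratio of 2.72. Ribosomal proteins are short, and genes with coding parts under 1000 bases had a median log2 fold change of -0.22, as given above. The part of length in this contrast was not tested.

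**Figure D5:**
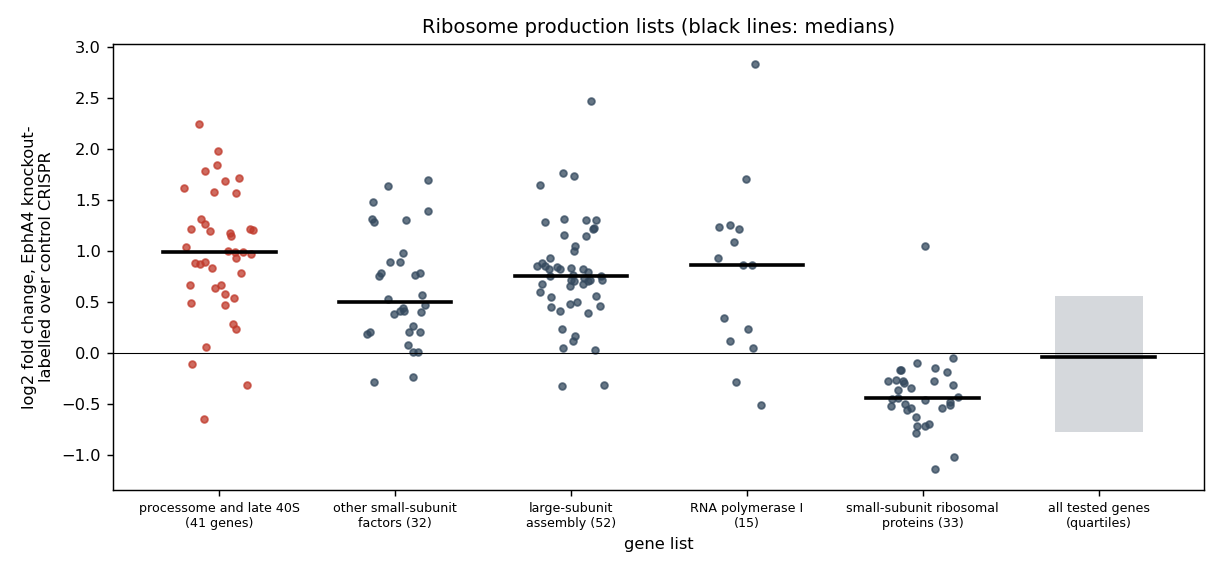
Log2 fold change, EphA4 knockout-labelled over control CRISPR, of every gene in 5 lists of ribosome production (points) with medians (black lines), beside the quartiles of all tested genes (grey bar). The medians are 0.99 for the 41 genes, 0.50, 0.75 and 0.86 for the other assembly and polymerase lists, and -0.44 for small-subunit ribosomal proteins.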

How the data were processed

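A single table of gene-level counts, without normalization, was deposited by the authors. Libraries were polyA-selected, per the labels' protocols. The submitters' processing notes name STAR and GRCm39, without versions; for the counting tool, strand setting and annotation, none is given in the sources used here. Coding lengths, principal transcripts (by APPRIS level, support level and coding length) and gene overlaps came from GENCODE M21, and promoters from RefSeq, both on GRCm38.

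Genes were filtered with filterByExpr (15199 of the 28042 with any count kept), scaled by TMM and tested over the whole table with edgeR 4.0.16 (glmQLFit, glmQLFTest, two-sided) in R 4.3.3. Each SE was taken as the size of the log2 fold change divided by the root of F. Alternatives used limma 3.58.1 and DESeq2 1.42.0. The fit was also run on simulated data in which a small part of the genes was changed, equally up and down. In the real data 71.5% of tested genes were called, so that run does not show how the fit performs here. Libraries of a group differed beyond sampling noise. The lowest chi-square over its degrees of freedom was 4.41, between the first and second EphA4 knockout-labelled libraries. Between these and the third it was 31.7 and 30.8, and between control libraries 6.81 to 8.89.

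The 41 genes, their modules and the other lists were chosen with earlier results of these data known. Values per library are given for the highest and lowest fold change of each module, the 3 highest levels per kb and every gene that was lower or overlapped. Leaving out pseudogenes, the union of exons and 2 further motifs were chosen after seeing the data.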

Additional observations from a re-analysis of the deposited data

How the results depend on the processing

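Of 656 values of single members under 16 alternatives each, 643 kept direction and call. The exceptions were Wdr36, whose call was lost in 10 alternatives, and Emg1, which was called higher in 2 and had a log2 fold change of -0.0065 with no filter. Members called higher numbered 37 or 38 in every alternative, and members called lower 2 or 3. The members' median log2 fold change was 1.02 with relative log expression factors, 1.02 in DESeq2, 1.02 with the 20 highest genes left out, 1.04 with pseudogenes left out and 0.92 with no filter, and 0.98 to 1.05 when each replicate was left out. The log2 ratio of their summed CPM, 0.98, was 1.01 with relative log expression factors, 1.01 with the 20 highest genes left out, 1.03 with pseudogenes left out and 1.01 to 1.04 without single replicates. Under the same order of settings (relative log expression, DESeq2, 20 highest genes out, pseudogenes out, no filter) the median of the other small-subunit factors was 0.53, 0.53, 0.53, 0.55 and 0.43, and 0.51 to 0.58 without single replicates. That of the large-subunit factors was 0.78, 0.78, 0.79, 0.81 and 0.69 (0.78 to 0.82 without single replicates). The RNA polymerase I median was 0.92 with pseudogenes left out and 0.80 with no filter (0.88 to 1.01 without single replicates), and the ribosomal protein median ran from -0.45 to -0.30 without single replicates. Other small-subunit factors called lower numbered 1 or 2 without single replicates. None of these list medians changed sign, and the cause of the shifts was not tested.

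No pairing of the samples by replicate number was seen. Same-numbered libraries had correlations of -0.003, 0.029 and 0.008 between their deviations from the group means. Not every library correlated best with its own number, although the highest value of all, 0.029, was between the second libraries. With 3 libraries per group, such values cannot show that the samples were unpaired. A replicate block called 10339 genes, against 10867 without it, and left 37 members higher and 3 lower. The share of member promoters with the motif was 5.88% in only the 100 bases before the start, where 5.48% of tested genes had it. For CANNTG it was 61.8%, beside 67.3% of tested genes. For the ZBTB33 motif it was 0.0%, beside 1.12% of tested genes. For the NRF1 motif it was 2.94%, or 1 promoter, beside 2.26% of tested genes. With the union of exons the log2 ratio of the highest to the lowest level per kb was 4.83 in EphA4 knockout-labelled and 5.42 in control libraries, against 3.04 and 4.08 per principal transcript.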
